A study of Mus musculus with 12 samples.

Results

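The cytosolic ribosomal protein genes are the genes for the protein components of the large (Rpl) and small (Rps) subunits of the ribosome that translates messenger RNA in the cytoplasm. They were chosen by symbol alone, as protein-coding genes named Rpl or Rps with a number and at most 1 letter (a, x, l or p), together with Rpsa and Rplp0 to Rplp2. Kinase genes such as Rps6ka1 and pseudogenes were left out. The rule gave 81 of the 21627 protein-coding genes of the autosomes (1 to 19) and chromosome X, of which 50 belong to the large and 31 to the small subunit. Binding of the transcription factors HIF1A and ARNT at these genes was read from lists of ChIP-seq peaks, which mark DNA recovered with an antibody against the factor, in N1E115, an established mouse neuroblastoma line described as NOS1+ in the labels. The cells had been kept for 3 days at 20% or 4% O2, each with 5% CO2 and at ambient barometric pressure. The 8 ChIP samples form 4 groups of 2 (HIF1A at 4% O2, HIF1A at 20% O2, ARNT at 4% O2 and ARNT at 20% O2), beside 4 input samples, and all groups come from the same line, for which no further allele or agent is named. The labels do not state that replicates were separate cultures, so the spread between replicates may be technical.

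Ribosomal proteins are made in nearly equal amounts and in very large quantity, and growing cells spend much of their transcription and translation on them. Their messenger RNAs begin with a run of pyrimidines, through which the kinase mTORC1 controls their translation, and low oxygen is known to restrain mTORC1. HIF1A is the subunit of the factor HIF-1 that is degraded when oxygen is plentiful, ARNT is its stable partner, and the pair is known to recognise the core sequences ACGTG and GCGTG.

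Promoter sequences of 7 genes are printed here as examples. Peaks of both replicates lay close to their annotated starts, in 6 of them with HIF1A at 4% O2 and in Rpl9 with ARNT. Other members also met this description and are not printed, among them Rpl10a, Rpl18, Rpl22, Rpl27 and Rps28. At 4% O2, 16 of 19 members with such HIF1A peaks within 1 kb of the start held a core sequence in the promoter. Rpl11, Rpl18 and Rpl22 held none. All 7 printed sequences hold one, so they do not stand for every such promoter. Each runs from 210 bases before the start to 20 bases from it, 5′ to 3′ on the gene's own strand, and comes from RefSeq on the build GRCm38.p6, the same build as mm10. Capitals mark ACGTG and GCGTG on either strand (CACGT and CACGC when read on the opposite strand), and overlapping matches run together. Rpl5 (chr5:107900318-107900547, plus strand) and Rpl26 (chr11:68901356-68901585, plus strand) encode a 5S RNA partner and a protein beside the peptide exit tunnel. Rpl14 (chr9:120571307-120571536, plus strand) and Rpl13a (chr7:45128726-45128955, minus strand) also belong to the large subunit. Rps16 (chr7:28350479-28350708, plus strand) and Rps25 (chr9:44407504-44407733, plus strand) belong to the small subunit, and Rpl9 lies at chr5:65391412-65391641 on the minus strand.
Rpl5: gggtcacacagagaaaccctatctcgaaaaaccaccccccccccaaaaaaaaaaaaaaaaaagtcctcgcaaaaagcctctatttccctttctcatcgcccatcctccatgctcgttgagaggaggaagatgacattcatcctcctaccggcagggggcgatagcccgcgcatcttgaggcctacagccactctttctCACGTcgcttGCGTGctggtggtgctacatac
Rps16: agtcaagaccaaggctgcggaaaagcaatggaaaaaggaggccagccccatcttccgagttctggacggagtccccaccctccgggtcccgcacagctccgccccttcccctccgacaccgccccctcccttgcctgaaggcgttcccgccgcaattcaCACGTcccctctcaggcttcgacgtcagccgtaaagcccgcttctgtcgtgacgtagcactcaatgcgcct
Rpl14: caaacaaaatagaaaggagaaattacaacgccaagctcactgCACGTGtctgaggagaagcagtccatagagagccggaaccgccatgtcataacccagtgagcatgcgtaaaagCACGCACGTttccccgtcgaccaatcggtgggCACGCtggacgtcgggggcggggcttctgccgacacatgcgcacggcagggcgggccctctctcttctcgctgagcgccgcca
Rps25: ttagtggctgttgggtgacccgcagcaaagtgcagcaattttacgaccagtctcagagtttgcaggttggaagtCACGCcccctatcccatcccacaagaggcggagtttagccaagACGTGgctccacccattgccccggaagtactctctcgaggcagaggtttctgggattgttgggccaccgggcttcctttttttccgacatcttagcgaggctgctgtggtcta
Rpl26: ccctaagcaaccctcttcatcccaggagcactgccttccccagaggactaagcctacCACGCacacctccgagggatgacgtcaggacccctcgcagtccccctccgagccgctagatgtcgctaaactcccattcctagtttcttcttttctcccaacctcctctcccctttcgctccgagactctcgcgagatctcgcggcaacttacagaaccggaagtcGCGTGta
Rpl13a: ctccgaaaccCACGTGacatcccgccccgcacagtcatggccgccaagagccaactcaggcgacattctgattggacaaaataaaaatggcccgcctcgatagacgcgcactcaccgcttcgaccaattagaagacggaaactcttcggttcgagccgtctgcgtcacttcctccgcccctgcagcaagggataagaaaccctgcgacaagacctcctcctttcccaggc
Rpl9: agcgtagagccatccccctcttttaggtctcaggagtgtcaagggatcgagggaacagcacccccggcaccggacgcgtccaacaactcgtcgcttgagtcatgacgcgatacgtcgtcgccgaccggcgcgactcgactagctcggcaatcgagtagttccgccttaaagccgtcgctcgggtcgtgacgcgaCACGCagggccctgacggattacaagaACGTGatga

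A peak was assigned to a gene when it lay within 5 kb of either end of the gene, and a shared region was a merged stretch that held a peak of both lists of a group. Shared HIF1A regions at 4% O2 were found at 31 of the 81 ribosomal protein genes, or 38.3% (95% Wilson interval 28.4 to 49.2%), against 24.7% of all protein-coding genes. At 20% O2 HIF1A had shared regions at 9 members (11.1%, Wilson interval 5.96 to 19.8%), against 4.18% of all genes. ARNT had shared regions at 23 members at 4% O2 (28.4%, Wilson interval 19.7 to 39.0%), against 20.6% of all genes. At 20% O2 ARNT had 3 (3.70%, Wilson interval 1.27 to 10.3%), against 4.39% of all genes. The members' share was above that of all genes in 3 of the 4 groups and below it for ARNT at 20% O2. The intervals cover counting of genes only, and members that lie next to each other share regions.

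Single lists held members far more unevenly than the shared regions do. HIF1A at 4% O2 had a peak at 64 members (79.0%) in replicate 1 and at 32 (39.5%) in replicate 2, where 47.7% and 25.0% of all genes had one. HIF1A at 20% O2 had a peak at 9 members (11.1%) in replicate 1 and 29 (35.8%) in replicate 2, where 4.70% and 21.5% of all genes had one. ARNT at 4% O2 had a peak at 61 members (75.3%) and 27 (33.3%), where 38.6% and 27.0% of all genes had one. ARNT at 20% O2 had a peak at 20 members (24.7%) and 3 (3.70%), where 13.8% and 4.72% of all genes had one. The members' share was above that of all genes in 7 of the 8 lists, by ratios of 1.24 to 2.37, and below it in replicate 2 of ARNT at 20% O2, with a ratio of 0.785. Ordered by the members' share, the 8 lists stood in the same order as by their length, from 42701 and 24942 peaks in replicate 1 of HIF1A and ARNT at 4% O2 down to 1808 in replicate 2 of ARNT at 20% O2, and depth is unknown because no read counts were used. When each list was limited to its 1808 highest peaks, shared regions were left at 4 members for HIF1A at 4% O2 (4.94%, against 4.21% of all genes), 2 for HIF1A at 20% O2 (2.47%, against 1.27%), 3 for ARNT at 4% O2 (3.70%, against 3.55%) and 1 for ARNT at 20% O2 (1.23%, against 2.97%). The part of list length in the members' counts was not tested further.

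**Figure D1:**
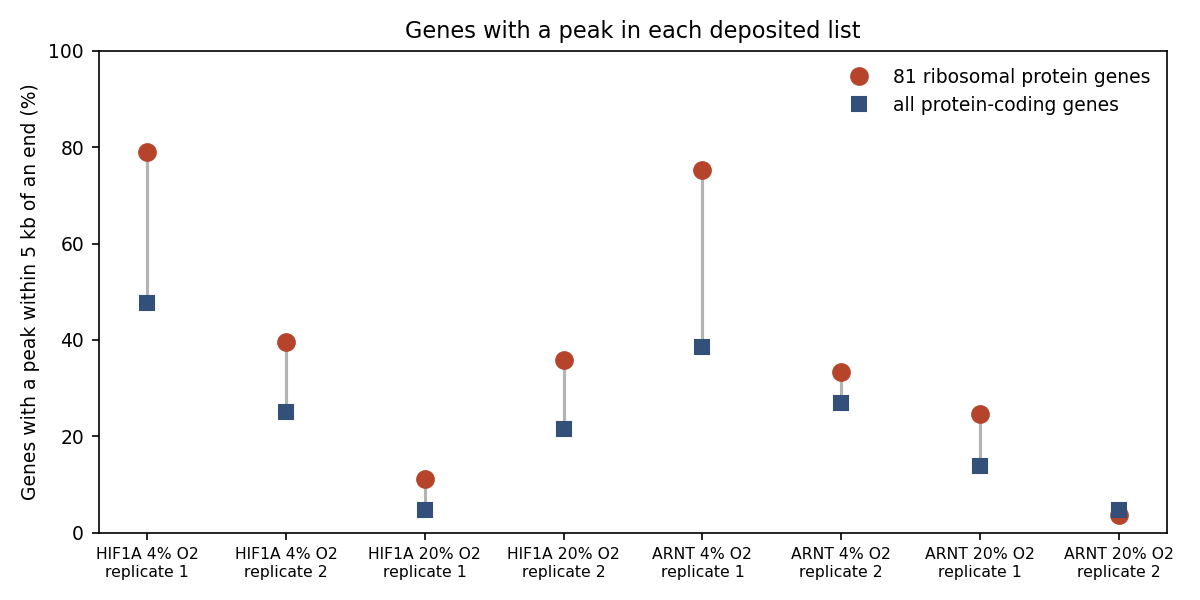
Percent of genes with a peak within 5 kb of a gene end (vertical axis) in each of the 8 peak lists, for the 81 ribosomal protein genes (circles) and all protein-coding genes (squares). The members lie highest in replicate 1 at 4% O2 (79.0% for HIF1A and 75.3% for ARNT) and fall below the squares in replicate 2 of ARNT at 20% O2 alone (3.70% against 4.72%).

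More ribosomal protein genes had a peak at 4% than at 20% O2 with both antibodies. The mean share was 59.3% ± 27.9 (SD, n = 2) at 4% O2 and 23.5% ± 17.5 (SD, n = 2) at 20% O2 for HIF1A. For ARNT it was 54.3% ± 29.7 (SD, n = 2) at 4% and 14.2% ± 14.8 (SD, n = 2) at 20% O2. The difference averaged over antibodies was 38.0 percentage points, with a two-sided exact permutation p of 0.0556 over the 8 samples, which is the smallest p that the 36 arrangements allow and stays above 0.05. After the share of all other genes in the same list was subtracted, the difference was 14.6 points (two-sided exact permutation p = 0.167). The replicates were far apart in its size: for HIF1A it was 67.9 points in replicate 1 (43.0 over all genes) and 3.70 points in replicate 2 (3.55 over all genes). For ARNT it was 50.6 points in replicate 1 (24.8 over all genes) and 29.6 in replicate 2 (22.2 over all genes). Thus in HIF1A replicate 2, whose lists hold 13655 peaks at 4% and 13386 at 20% O2, the 2 oxygen levels were nearly level, both at the members and over all genes. HIF1A and ARNT did not differ in the members' share beyond the spread between samples (HIF1A higher by 7.10 points, two-sided exact permutation p = 0.611), and without replicate 2 the difference turned to -4.94 points. The smallest p of 0.0556 limits that comparison as well.

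Within the lists, the members' peaks were of middling rank. A percentile here is the position of a peak's score, the authors' own value, within its list, with 100 for the highest. Among the 31 members with a shared HIF1A region at 4% O2 the mean percentile over both lists ran from 23.6 to 97.6 with a median of 67.6, while the median of all genes with such a region was 72.3. Only 4 of these 31 (12.9%) stood at the 90th percentile or above, against 22.0% of all genes. The medians of members and of all genes were 51.0 and 68.1 for HIF1A at 20% O2, 55.0 and 65.7 for ARNT at 4% O2, and 66.7 and 73.0 for ARNT at 20% O2. The members' median lay below that of all genes with a shared region in each of the 4 groups.

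The highest regions at 4% O2 lay at large subunit genes. Rpl3l encodes the muscle form of RPL3, the protein that reaches to the peptidyl transferase centre. Its HIF1A region (chr17:24736264-24736610) stood at percentiles of 98.7 in replicate 1 and 96.6 in replicate 2, and its ARNT region (chr17:24736368-24736615) at 96.5 and 93.6. HIF1A replicate 2 at 20% O2 also had a peak at this gene, at a percentile of 95.4, and no other list at 20% O2 did. The HIF1A region lay 294 bp from the near end of Rpl3l and closer still, at 156 bp, to the methionine sulfoxide reductase gene Msrb1. A second HIF1A region (chr17:24728597-24728819, percentiles 87.9 and 80.4) lay 882 bp downstream of the Rpl3l start. The widely used paralog Rpl3 had percentiles of 89.2 and 75.9 for HIF1A (chr15:80083321-80083779, 144 bp from an end) and 88.6 and 58.2 for ARNT at 4% O2.

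Rpl5 and Rpl11 encode the partners of the 5S RNA, a particle that also binds MDM2 and stabilises p53 when ribosome assembly is disturbed. At Rpl5 the percentiles at 4% O2 were 98.2 and 89.2 for HIF1A (chr5:107899905-107900675) and 95.9 and 72.7 for ARNT (chr5:107900408-107900636), with the ARNT region centred 6 bp before the start. At 20% O2 only HIF1A replicate 2 had a peak there, at 57.3. The 1 bp position of HIF1A replicate 2 at 4% O2 lay 1 bp from the centre of the nearest core motif in the Rpl5 sequence printed above, which holds ACGTG on the opposite strand 12 bases and GCGTG 2 bases before the start. Rpl11 ranked lower, with 36.2 and 55.6 for HIF1A (chr4:136052994-136053156, centre 318 bp downstream of the start). Its shared ARNT region (chr4:136053273-136053517) stood at 51.7 and 14.8 and did not overlap the HIF1A region. At 20% O2 Rpl11 had a peak in HIF1A replicate 2 alone, at 62.6. Both 5S partners thus had shared regions of both antibodies at 4% O2, which overlapped at Rpl5 but not at Rpl11. Neither had a shared region at 20% O2.

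Rpl10a encodes the protein of the flexible L1 stalk, where spent transfer RNA leaves. Its HIF1A region (chr17:28328425-28328614, centred 46 bp before the start) stood at 89.6 and 76.3, and its ARNT region at 73.4 and 73.1. Rpl22, whose product is dispensable in many cells and shares its role with the paralog Rpl22l1, had HIF1A percentiles of 84.0 and 75.8 (chr4:152325630-152325884, centred 31 bp downstream of the start) and ARNT percentiles of 90.9 and 75.4. Neither HIF1A list at 20% O2 had a peak at Rpl22. Rpl41 encodes the smallest ribosomal protein, and its highest ARNT peaks at 4% O2 stood at 86.5 and 39.4. Its HIF1A regions at 4% O2 differed between replicates, with 80.0 and 1.29 at chr10:128547727-128547944 and 55.7 and 41.9 at chr10:128549093-128549417.

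Of the acidic stalk proteins that recruit elongation factors, Rplp2 had a shared HIF1A region at 4% O2 (chr7:141447178-141447685, percentiles 93.4 and 56.2, centred 220 bp before the start and 134 bp from an end of Pidd1). Its shared ARNT region stood at 80.4 and 9.69. Rplp0 had 1 peak in the 8 lists, in HIF1A replicate 2 at 20% O2 (35.8). Rplp1 had 1 as well, in ARNT replicate 1 at 4% O2 (72.0). Rpl12, which forms the base of the stalk, had a shared HIF1A region at 4% O2 (chr2:32966813-32967075, percentiles 63.6 and 63.1), 2899 bp beyond its downstream end. Shared HIF1A regions at 4% O2 were thus found at 2 of the 4 stalk genes, beside 38.3% of all members and 24.7% of all genes. With so few genes this count does not set the stalk apart.

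On the small subunit, 9 of 31 members (29.0%) had a shared HIF1A region at 4% O2 and 6 (19.4%) a shared ARNT region, close to the 24.7% and 20.6% of all genes. On the large subunit it was 22 (44.0%) and 17 (34.0%) of 50. Members of the head of the subunit, which holds the messenger RNA and the transfer RNAs, had HIF1A regions at 7 of 14 and ARNT regions at 4 of 14, and members of the body at 2 of 16 (12.5%) for each antibody, to be read beside the same shares of all genes. No test was made between these lists, which were drawn up with earlier results of these data known. Rps29, a zinc-binding protein of the head, had HIF1A percentiles of 91.0 and 87.6 (chr12:69159052-69159347) and ARNT percentiles of 76.7 and 79.8 (chr12:69159066-69159311). The HIF1A region lay 13 bp from an end of Rps29 and 96 bp from Rn7s1, a gene for the 7SL RNA of the signal recognition particle, and these are too close to be told apart. Rps16, whose tail touches the transfer RNA in the P site, had HIF1A percentiles of 93.9 and 60.5 (chr7:28350513-28350790, centred 38 bp before the start) and ARNT percentiles of 63.9 and 70.7. Its printed promoter holds ACGTG on the opposite strand 51 bases before the start, with the HIF1A replicate 2 position 26 bp from it. Rpsa, which is also the laminin receptor, had only a peak at the bottom of HIF1A replicate 1 at 4% O2 (0.0656) and 1 in ARNT replicate 1 at 4% O2 (35.3).

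Rpl13a encodes a large subunit protein known for its role in the interferon-gated GAIT complex. Its highest peaks at 4% O2 stood at 98.0 and 94.7 for HIF1A and at 95.5 and 92.8 for ARNT, in regions 989 and 969 bp from an end of Rpl13a and nearer an end of another gene. A further HIF1A region at 4% O2 (chr7:45128867-45129156, percentiles 75.2 and 23.1) was centred 266 bp before the Rpl13a start, near the palindromic CACGTG in its printed sequence, from which the HIF1A replicate 2 position lay 5 bp away. ARNT had no peak at Rpl13a at 20% O2.

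Several of the shared regions lay between a ribosomal protein gene and a close neighbour. Members were short, with a median length of 3175 bp against 17330 bp for all genes, and the end of another protein-coding gene lay within 5 kb of 59 of them (72.8%, against 46.5% of all genes). Of the 22 members with a HIF1A region within 500 bp of an own end at 4% O2, 11 had the end of another gene within 500 bp as well. For ARNT at 4% O2 that was the case for 6 of 16. An end of another protein-coding gene was nearer than any end of the member for 10 of 31 members with HIF1A and 10 of 23 with ARNT. The same counts over all genes are not given here, so they cannot be read as particular to the members. Counted without peaks that were nearer another gene, shared regions at 4% O2 were found at 21 members for HIF1A (25.9%, against 19.5% of all genes). For ARNT they were found at 13 (16.0%, against 15.7%). With all peaks the shares of all genes were 24.7% for HIF1A and 20.6% for ARNT. Rps28, Rpl36 and Rpl37, chosen here after their values were seen, lay 34, 2 and 80 bp from the neighbour nearest to their region (Ndufa7, Micos13 and Card6). Rps15 and Rpl23a were the farthest inside the limit for HIF1A, with region edges 4788 and 4674 bp from an end, and Rpl19 and Rps10 lay just outside it at 5485 and 6028 bp.

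Where the start of a gene was known, most regions lay at it. The promoter table gives a start for 61 members, and 25 of these had a shared HIF1A region at 4% O2. For 19 of the 25 (76.0%) a region lay within 1 kb of the start, compared with 69.6% of all genes with a region. With ARNT at 4% O2 it was 10 of 17 (58.8%, against 72.2%), with HIF1A at 20% O2 4 of 7 (57.1%, against 43.0%) and with ARNT at 20% O2 3 of 3 (100%, against 69.3%). Over all genes of the table, 18.2% had a HIF1A and 15.9% an ARNT region within 1 kb of the start at 4% O2, and 2.01% and 3.24% at 20% O2. Small nucleolar RNA genes lie inside 29 members, in which they guide the chemical marking of ribosomal RNA. Shared HIF1A regions at 4% O2 were found at 11 of these 29 and 20 of the 52 others.

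**Figure D2:**
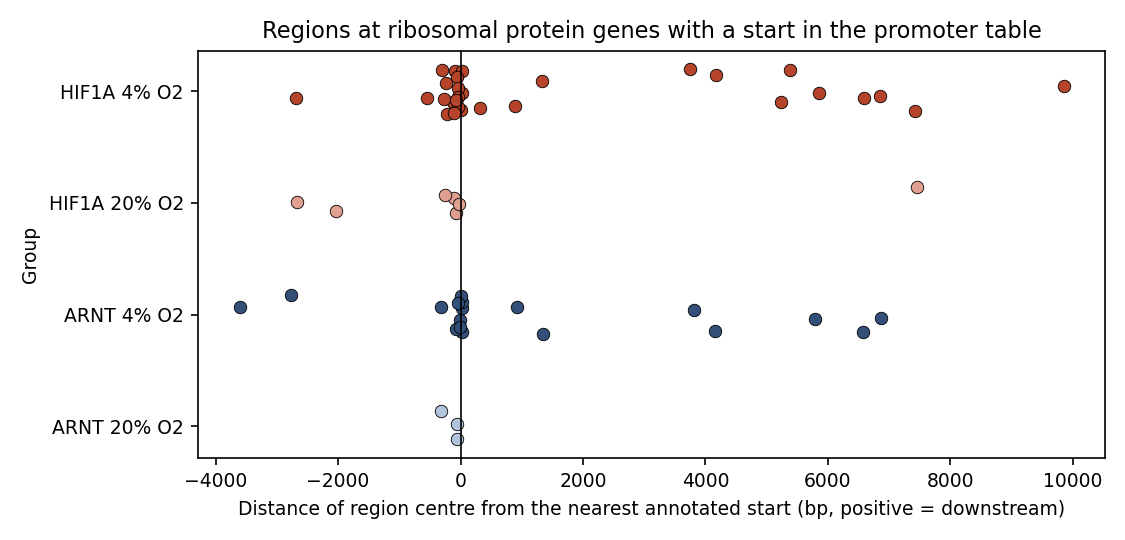
Distance in bp of the centre of each shared region from the start of the nearest ribosomal protein gene with an annotated start (horizontal axis, positive values downstream), by group, with 1 point per region and vertical scatter for legibility only. Most points of HIF1A at 4% O2 stand near 0, and 19 of the 25 members with a start had a region within 1 kb of it.

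At 20% O2 few members had a shared region. Of the 9 with HIF1A, 6 (66.7%) had one at 4% O2 too, against 75.0% of all genes with a HIF1A region at 20% O2, and of the 3 with ARNT 2 did (66.7%, against 64.5%), so the members stood near the share of all genes. HIF1A had them at both oxygen levels at members such as Rpl13a, Rpl18, Rpl24, Rpl26 and Rps29, and at Rpl31, Rps27 and Rps9 at 20% O2 alone. Each of these last 3 had a peak in HIF1A replicate 1 at 4% O2 and none in replicate 2. Rps27, a small subunit protein whose paralog Rps27l is a p53 target, ranked highest with 89.7 and 92.1 (chr3:90213617-90213820, centred 70 bp before its start and 3 bp from an end of Rab13), and its single peak at 4% O2 stood at 81.3. Rpl26, which binds p53 messenger RNA and is a target of the modifier UFM1, had 75.8 and 95.1 at 20% O2 (chr11:68901371-68901562, centred 100 bp before the start) and 93.0 and 79.3 at 4% O2 (chr11:68901361-68901592). Its printed promoter holds GCGTG on the opposite strand 153 bases before the start and on the same strand 14 bases from it, and the HIF1A replicate 2 position at 4% O2 lay 40 bp from the nearest.

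Rps29 at 20% O2 stood at 69.1 and 64.2 for HIF1A (chr12:69159161-69159332, 49 bp from Rn7s1), below its values at 4% O2 in both lists. The region near the Rpl13a start stood at 49.5 and 48.9 at 20% O2 (chr7:45128895-45129107). Rpl31, an exit tunnel protein, had 72.5 and 29.5 (chr1:39365729-39365902, centred 2036 bp before the start). Rps9, a body protein that affects decoding accuracy, had 42.1 and 49.6 (chr7:3703938-3704100, centred 22 bp before the start). Rpl24, which bridges to the small subunit, had highest peaks of 32.4 and 82.0 at 20% and 59.9 and 6.77 at 4% O2, where its region (chr16:55973551-55973841) lay 2259 bp both from its own end and from an end of Zbtb11. Percentiles of different lists share no scale, so these values rank peaks within a list and do not measure a change.

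Rpl18 was the only member with a peak in all 8 lists (1.23%, against 0.698% of all genes). Its highest HIF1A peaks stood at 68.1 and 71.9 at 4% and 7.10 and 83.8 at 20% O2. The highest ARNT peaks stood at 83.7 and 45.8 at 4% and 57.2 and 76.2 at 20% O2. These peaks did not all lie at the same site. HIF1A had 2 shared regions at 4% O2, chr7:45715288-45715490 (35.6 and 71.9) and chr7:45717951-45718114 (68.1 and 67.0). The shared ARNT region at 4% O2 (chr7:45715111-45715503) stood at 12.9 and 45.8 and did not overlap the one at 20% O2. The ARNT region at 20% O2 (chr7:45717964-45718075) was centred 52 bp before the start and lay 17 bp from an end of the sphingosine kinase gene Sphk2. ARNT at 20% O2 had 2 further members. Rpl9 had 67.4 and 43.6 at 20% O2 (chr5:65391397-65391575, centred 55 bp before the start and 11 bp from an end of Lias, a lipoic acid synthase gene), and 73.1 and 3.53 at 4% O2. Rps26, a protein at the messenger RNA exit channel, had 85.7 and 70.9 at 20% O2 (chr10:128626711-128626950, centred 324 bp before the start), and at 4% O2 a single ARNT peak at 55.5. Rps26 was the only member with a shared ARNT region at 20% O2 and none at 4% O2.

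At 4% O2, 19 members had shared regions of both antibodies, 12 of HIF1A only and 4 of ARNT only. Regions of both antibodies at a gene need not overlap, as at Rpl11. The same split of shared regions over all genes is not given here, so these counts cannot be read as particular to the members. Most of these lists were called against the same input sample 4, which they share, so the counts are given side by side. Replicate 2 of HIF1A was called against input 5, and it shares no input with ARNT replicate 2. In that pair of lists at 4% O2 HIF1A had a peak at 32 members and ARNT at 27, with 21 in common, or 65.6% of the HIF1A members and 77.8% of the ARNT members. Over all genes the shares were 79.0% and 73.3%. At 20% O2 the pair had 29 and 3 members with 2 in common, or 6.90% and 66.7%, and 13.9% and 63.2% over all genes. In the longer replicate 1 lists at 4% O2, Rpl14, Rpl26, Rpl34, Rpl12, Rps27a and Rps25, the highest members with a shared HIF1A region only, all had an ARNT peak as well, at percentiles of 13.6, 24.6, 24.6, 84.0, 68.5 and 72.0. Lack of a shared ARNT region was therefore not lack of ARNT peaks within 5 kb of an end of these genes. Replicate 1 of ARNT at 4% O2 had a peak at 75.3% of all members and 38.6% of all genes, however. Its peaks need not lie in the HIF1A regions. Rpl23a, another member with a shared HIF1A region only, had no peak in that list.

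Rpl14 had HIF1A percentiles of 87.7 and 78.5 at 4% O2 (chr9:120571348-120571536, centred 75 bp before the start). Its ARNT peaks at 4% O2 stood at 13.6 and 84.3 and did not form a shared region. The printed Rpl14 promoter holds 5 core motifs, the most of the 7 shown, and the HIF1A replicate 2 position lay 10 bp from the nearest. Rpl34 had 74.1 and 64.9 for HIF1A (chr3:130730346-130730561, centred 55 bp before the start), with the replicate 2 position 97 bp from the nearest motif. Rps25, which is needed for translation from several viral internal entry sites, had 84.6 and 30.7 (chr9:44407489-44407719, centred 110 bp before the start and 56 bp from an end of Trappc4), with the position 15 bp from a motif. Rps27a, made as a fusion with ubiquitin, had 88.0 and 27.6 (chr11:29547833-29548093, 13 bp from an end of Clhc1).

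The 4 members with a shared ARNT region only ranked lower in replicate 2 than in replicate 1. Rps24 had 59.8 and 49.5 (chr14:24486969-24487170), 3609 bp from its own start and 1 bp from an end of Polr3a, the gene for the largest subunit of RNA polymerase III. Rpl17, an exit tunnel protein, had 84.2 and 22.1 in a region 2384 bp from an own end and 74 bp from BC031181. Rpl30 had 69.9 and 9.69, and Rpl9 had 73.1 and 3.53. All 4 genes had a HIF1A peak in replicate 1 at 4% O2, at 91.7, 82.0, 46.1 and 71.8, and none in replicate 2.

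**Figure D3:**
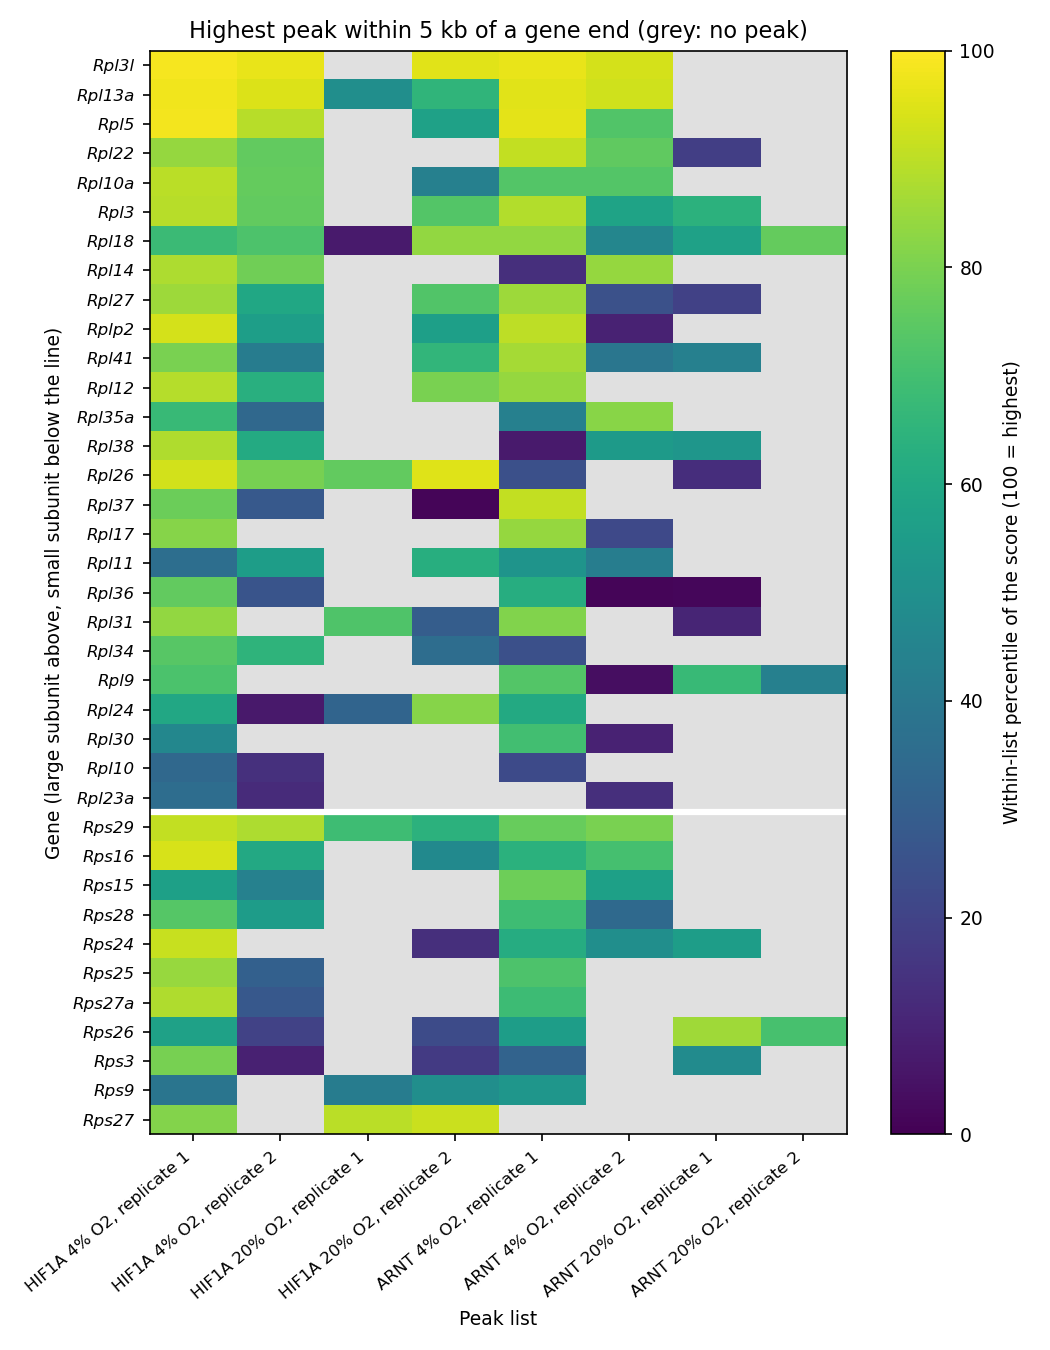
Within-list percentile of the highest peak within 5 kb of a gene end (colour, 100 for the highest score of the list, grey for no peak) for ribosomal protein genes with a shared region in any group (rows, large subunit above the white line, small subunit below) in the 8 peak lists (columns). Rpl3l, Rpl13a and Rpl5 are the brightest at 4% O2, and Rpl18 is the row with a peak in all 8 lists.

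Of the 81 members, 38 (46.9%) had a shared region in at least 1 group, against 30.2% of all genes, and 33 (40.7%) had peaks but no shared region, against 22.2%. No peak in any list was found at 10 (12.3%), against 47.6% of all genes. Among the 10, named after their values were seen, were Rpl4, Rpl35, Rpl39 and the paralogs Rpl10l, Rpl32l and Rpl39l. All 4 lists at 4% O2 had a peak at 20 members (24.7%, against 18.2%). In HIF1A at 4% O2, the 31 members in a shared region were 48.4% of those with a peak in replicate 1 and 96.9% of those in replicate 2, near the 51.9% and 98.9% of all genes with a peak in both lists.

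Core motifs were frequent in the members' promoters, with and without a region. In windows from 250 bases before to 50 bases after the start, ACGTG or GCGTG on either strand was found in 43 of 61 members (70.5%), against 52.9% of all 17273 promoters of the same length. ACGTG alone was in 18 (29.5%, against 23.5%) and GCGTG in 37 (60.7%, against 41.9%). The palindrome CACGTG, which contains ACGTG on both strands, was in 6 (9.84%, against 9.02%). Among the 19 members with a HIF1A region within 1 kb of the start at 4% O2, 16 (84.2%) held a core motif, and among the other 42 members 27 did (64.3%). Over all genes the shares were 81.9% with and 46.4% without such a region. For ARNT at 4% O2 the counts were 8 of 10 (80.0%) and 35 of 51 (68.6%), and over all genes 82.1% and 47.4%. The gap between genes with and without a region was thus smaller among the members than over all genes, a difference that was not tested.

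The 1 bp positions of HIF1A replicate 2 allow a closer look at where the peak lay. At 4% O2 such a position fell into the promoter window of 14 members, and 13 of these windows held a core motif. The median distance from the position to the centre of the nearest motif was 26.0 bp, with 6 of 13 (46.2%) within 20 bp, against a median of 20.0 bp and 50.3% over 1727 promoters of all genes. The distances were 1 bp at Rpl5, 5 bp at Rpl13a, 10 bp at Rpl14 and 15 bp at Rps25, but 130 bp at Rplp2, and the window of Rpl18 held no motif. A run of at least 5 pyrimidines touching the bases around the start, the feature that these messenger RNAs are known for, was present in 35 of 61 members (57.4%) and in 36.9% of all promoters. A match of letters is a description and does not show where the factors bound.

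The ribosomal protein genes were compared with other genes of translation, all described by the count of shared regions. Among other proteins of the cytosolic ribosome whose symbols lie outside the rule, Fau and Rps3a1 had shared regions of both antibodies at 4% O2, with mean percentiles of 98.4 and 97.7 for HIF1A and 97.1 and 96.5 for ARNT. Both means for HIF1A stood above the 97.6 of Rpl3l, the highest member. The mitochondrial ribosomal protein gene Mrpl49 had the same percentiles as Fau in every list, so the peaks were not assigned to Fau alone. Mrpl49 enters the count of mitochondrial ribosomal protein genes below. Rack1, a scaffold protein on the small subunit, had no shared region. Among 28 initiation factor genes, 19 (67.9%) had a shared HIF1A region and 15 (53.6%) an ARNT region at 4% O2, with Eif2s2, a subunit of the factor that brings the initiator transfer RNA, at mean percentiles of 98.1 and 96.8. Of 9 elongation factor genes 3 had a HIF1A and 5 an ARNT region, and Eef2, the translocase, stood at 99.3 and 99.2.

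Of 36 ribosome biogenesis genes, 15 (41.7%) had a shared HIF1A and 14 (38.9%) an ARNT region at 4% O2, among them Npm1 (mean percentiles 97.7 and 94.5) and the methyltransferase gene Fbl (95.9 and 95.8). In the mTORC1 list 7 of 14 and 6 of 14 had one, with Ddit4, an inhibitor of mTORC1 induced in low oxygen, at 99.8 and 99.7. Of 78 mitochondrial ribosomal protein genes, 25 (32.1%) had a HIF1A and 23 (29.5%) an ARNT region. Of 24 glycolysis genes, which are textbook HIF-1 targets, 21 (87.5%) and 18 (75.0%) had one. The shares of the cytosolic ribosomal protein genes at 4% O2, 38.3% and 28.4%, lay between the share of all genes and that of the initiation list for both antibodies. At 20% O2, where 4.18% of all genes had a shared HIF1A region, the 11.1% of the ribosomal protein genes stood beside 8.97% of the mitochondrial ribosomal protein, 22.2% of the elongation, 7.14% of the mTORC1 and 29.2% of the glycolysis genes, and no initiation or biogenesis gene had one. These lists were described by counts and medians and were not tested against each other.

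**Figure D4:**
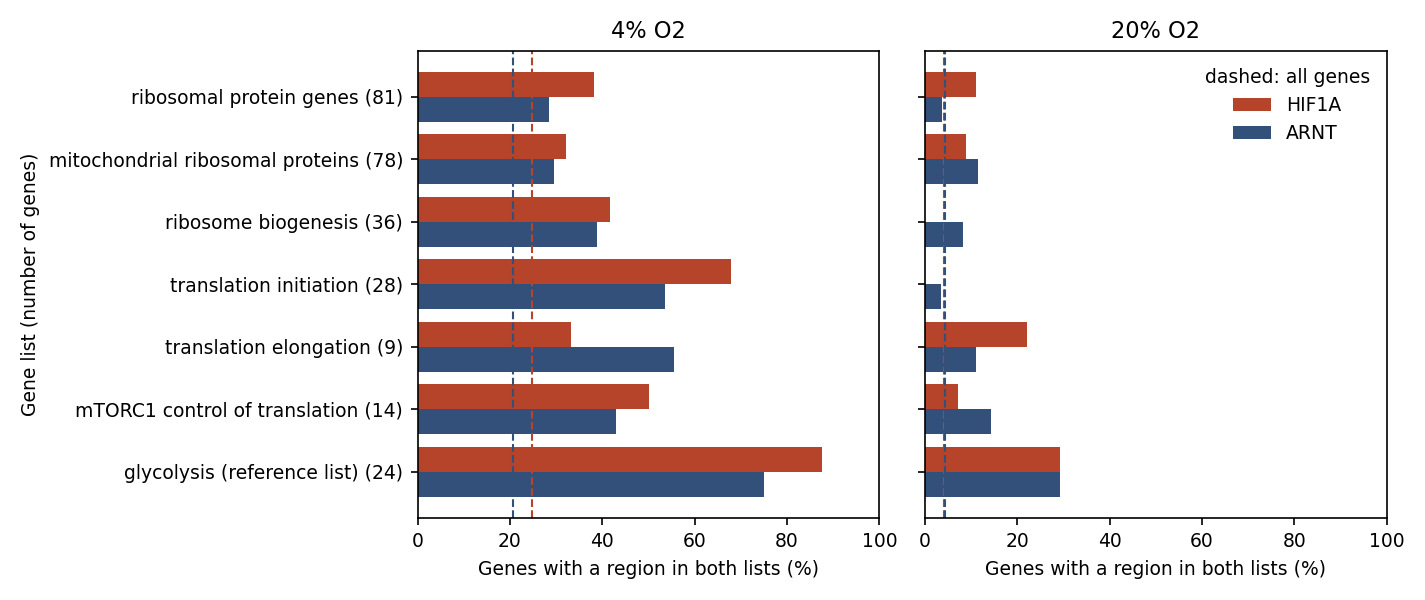
Percent of genes with a shared region (horizontal axis) at 4% O2 (left) and 20% O2 (right) for HIF1A and ARNT in the ribosomal protein genes and 6 other lists, with the number of genes in brackets and dashed lines for all protein-coding genes. At 4% O2 the ribosomal protein genes (38.3% and 28.4%) stand above the dashed lines (24.7% and 20.6%) and below the initiation list (67.9% and 53.6%) and the glycolysis list (87.5% and 75.0%).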

How the data were processed

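Binding was measured by ChIP-seq of HIF1A and ARNT in N1E115 cells, with 2 samples for each antibody and oxygen level. The tools BWA, Picard and MACS2 and the mouse build mm10 are named, without versions, per the submitters' processing notes. The authors deposited 1 peak list per ChIP sample, with a position and a score for each peak. No header names the scale of the deposited score, so it was used only for ranks within a list. Per the sample names in the files, HIF1A replicate 2 was called against input 5 and the other 6 lists against input 4 of the same oxygen level. Per the file headers, the replicate 1 samples share a flow cell lane. Both HIF1A replicate 2 lists, from combined runs per the labels, hold 1 bp positions, which were widened by 81 bp on each side after the median interval width of 162 bp. How reads that also match processed copies of ribosomal protein genes were treated is not given in the sources.

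A shared region was a merged stretch (overlap of at least 1 bp) with a peak of both lists of a group, within 5 kb of either gene end. Genes and promoters came from RefSeq GRCm38.p6, in which all 81 symbols were found and 61 had a promoter entry. Shares of all genes are given beside those of the members. Groups came from the sample titles, and samples were compared by two-sided exact permutation (Python 3.11.15, numpy 2.4.6, pandas 2.3.3, scipy 1.17.1). The assignment of peaks was tested on simulated lists. Named genes were those with a region at 20% O2, the 10 highest per antibody at 4% O2, up to 6 per antibody with a region of 1 antibody only, and the stalk, Rpsa and 5S genes. Members, lists and rules were chosen with earlier results of these data known. Distance, gene window, overlap, peak number, peak width, symbol rule, neighbouring genes and left-out replicates were varied. The inputs have no list of their own and were not analysed here. A few genes of the set enter the counts and are not reported by name here.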

Additional observations from a re-analysis of the deposited data

How the results depend on the processing

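The difference between 4% and 20% O2 kept its direction under all 11 alternatives, from 2.16 percentage points with the 1808 highest peaks of each list to 59.3 points without replicate 2, with exact permutation p from 0.0556 to 0.5. Leaving out 1 replicate number gave 16.7 to 59.3 points. The difference between HIF1A and ARNT kept its direction in 10 of 11 and reversed to -4.94 points without replicate 2, with a range of -4.94 to 19.1 points when 1 replicate number was left out. Within 20 kb of an end, shared regions were found at 14 members for HIF1A at 20% O2, 36 for ARNT at 4% O2 and 9 for ARNT at 20% O2. With the 1808 highest peaks the counts fell to 4 and 2 for HIF1A at 4% and 20% O2 and 3 and 1 for ARNT, since fewer peaks were counted. Without peaks nearer another gene, ARNT had 13 members at 4% and 1 at 20% O2. Within 5 kb of the start, known for 61 members, HIF1A had 19 and ARNT 14 at 4% O2. In single lists the members with a peak were 32 to 64 for HIF1A at 4% O2, 9 to 29 for HIF1A at 20% O2, 27 to 61 for ARNT at 4% O2 and 3 to 20 for ARNT at 20% O2. The members' share was above that of all genes in 12 of 12 alternatives for HIF1A at both oxygen levels and for ARNT at 4% O2, and in 3 of 12 for ARNT at 20% O2. The settings for 1 bp positions concern HIF1A replicate 2 only and could not alter the ARNT counts. For ARNT at 4% O2 the margin was small with the 1808 highest peaks (3.70% against 3.55%). It was also small without peaks nearer another gene (16.0% against 15.7%). When the whole gene span plus 5 kb was searched, the margins of these 3 groups narrowed. For HIF1A the shares were 38.3% against 30.1% of all genes at 4% O2 and 11.1% against 8.57% at 20% O2. For ARNT at 4% O2 they were 28.4% against 24.2%.

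With the replicate number as a block (16 arrangements, smallest possible exact p of 0.125), the difference between oxygen levels was 38.0 points (exact permutation p = 0.125) and that between antibodies 7.10 points (exact permutation p = 0.625). The block changes the p only, so among the alternatives above it could not alter the direction. Same-numbered lists did not deviate together throughout, with correlations over genes of -0.19 to 0.26. These values cannot decide whether the numbers pair the samples, because the lists differ in length and the replicate 1 samples share a flow cell lane. Depth is unknown, and with 2 samples a group no single gene's difference can be tested. A missing peak does not show that a factor was absent.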
